A study of Mus musculus with 4 samples.

Results

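The subunit genes of the glutamate, GABA and glycine receptors were followed in RNA from mouse retina at E13.5 (E, embryonic day). The members were chosen by gene name alone, as every Gene ID of the AMPA (Gria), kainate (Grik), delta (Grid), NMDA (Grin), metabotropic glutamate (Grm), GABA-A (Gabr), GABA-B (Gabbr) and glycine (Glra and Glrb) receptor families. There were 52 such genes among 25239 in the tables, and each stood on 1 row in each of the 4 libraries. The classes held 4 AMPA, 5 kainate, 2 delta, 7 NMDA, 8 metabotropic glutamate, 19 GABA-A, 2 GABA-B and 5 glycine receptor genes.

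The study addresses what loss of Isl1, the gene of a LIM-homeodomain transcription factor, does to gene expression in the retina. It set 2 libraries of genotype control against 2 of genotype Isl1cKO, a conditional knockout, all from dissected and frozen retina of the same embryonic age. The Cre line, the alleles that the controls carry, and whether a library pools several embryos are not given in the sources used here. Nothing in the labels says that replicates of a group came from separate embryos, so the p-values measure only the spread between these libraries, which may be technical between the controls. The 2 libraries labelled Isl1cKO differ in Xist, as given below, so they do not hold the same RNA.

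These receptors carry fast and slow transmission at neuronal synapses. AMPA, kainate and NMDA receptors are cation channels opened by glutamate, the metabotropic glutamate receptors and GABA-B receptors act through G proteins, and GABA-A and glycine receptors are chloride channels. Some are obligate assemblies: NMDA receptors need the Grin1 product, and GABA-B receptors pair the products of Gabbr1 and Gabbr2. Glycine receptors form from alpha subunits alone, as in much embryonic tissue, or together with the beta subunit of Glrb. In the embryonic retina the receptors are made before mature synapses form, and ganglion cells are the first neurons to be born.

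The libraries were checked before the members were read. Isl1 itself measured 242 and 201 TPM (a level scaled to transcript length and to the same sum in each library) in control replicates 1 and 2, and at 321 and 223 TPM in the Isl1cKO-labelled libraries. Transcript of the targeted gene was therefore no lower where the label says Isl1cKO, no value per exon was given, and each direction below rests on the labels. The libraries held 12.6 to 14.3 gigabases of aligned sequence by their ratio of coverage to FPKM, with the least in Isl1cKO replicate 2. Of 13 ganglion cell markers, 11 were lower in both libraries labelled Isl1cKO than in both controls, as were 30.0% of all tested genes, and their summed level was 2941 to 3463 TPM in control against 1295 to 1873 TPM. The exceptions were Isl1 and Pou4f2. Summed lens markers were at 234 to 291 TPM in control against 9.90 to 14.3 TPM, and summed red blood cell markers at 2903 to 4168 TPM against 204 to 1418 TPM. Summed photoreceptor precursor markers were at 220 to 256 TPM against 166 to 219 TPM, pigment epithelium markers at 39.4 to 49.4 TPM against 28.5 to 39.2 TPM with Rpe65 at 0 throughout, and microglia markers at 49.5 to 50.3 TPM against 61.0 to 76.5 TPM. Retinal progenitor markers (12 genes, 7001 to 8215 TPM) and horizontal cell markers (4 genes, 78.9 to 115 TPM) had overlapping sums, and amacrine markers (7 genes) summed to 42.1 to 63.7 TPM against 29.4 to 41.6 TPM. Markers of periocular mesenchyme (9 genes, 19.2 to 26.3 TPM in control against 14.5 to 18.2 TPM), endothelium (6 genes, 63.9 to 83.6 TPM against 59.3 to 62.7 TPM) and skeletal muscle with peripheral neurons (5 genes, 7.62 to 8.93 TPM against 2.12 to 4.45 TPM) also had lower sums in the Isl1cKO-labelled libraries. Kdr, at 69.0 and 57.0 TPM in control against 56.7 and 55.5 TPM, supplied most of the endothelium sum. Cdh5 stood at 2.55 and 0.357 TPM in control against 0.211 and 0 TPM, and Emcn at 2.16 and 0.383 TPM against 0.175 and 0 TPM. Pecam1 overlapped between the groups. Isl2 and Prph supplied most of the sum for skeletal muscle with peripheral neurons. Isl2 stood at 5.11 and 5.74 TPM in control against 2.33 and 1.12 TPM, and Prph at 1.63 and 2.20 TPM against 0.402 and 0.561 TPM. The muscle genes Myh3 and Actc1 overlapped between the groups and did not exceed 0.873 TPM. The lens list held 14 genes, of which 9 were called lower in limma, the red blood cell list 9, the photoreceptor precursor list 5, and the pigment epithelium and microglia lists 8 each. Xist stood between 209 and 287 TPM in the other libraries and at 0.501 TPM in Isl1cKO replicate 2. The part of these differences in the receptor values was not tested, and in bulk tissue fewer cells of a type and less RNA per cell cannot be told apart.

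Receptor subunit genes were present at low to moderate levels. Of the 52 members, 30 reached 1 TPM in at least 2 libraries and were tested. Their mean level over the 4 libraries had a median of 4.20 TPM, and 6 of them exceeded 10 TPM. Gabbr1 was the highest at 74.0 TPM, followed by Grik5 at 66.4 TPM, Gria4 at 17.4 TPM, Gabra3 at 15.3 TPM, Grm2 at 15.0 TPM and Gria2 at 10.1 TPM. This order differed between the groups: Grik5 had a higher mean than Gabbr1 in the Isl1cKO-labelled libraries (68.0 against 64.1 TPM), and in control Grm2 and Gria4 both averaged 19.5 TPM, above Gabra3 at 15.4 TPM. The ranges of Gabbr1 and Grik5 over the libraries overlapped, while the lowest value of Grik5 lay above the highest of Gria4. From Gria4 downward, the range of each gene overlapped that of the next gene in the order. The other 22 members stayed under 1 TPM in every library.

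**Figure D1:**
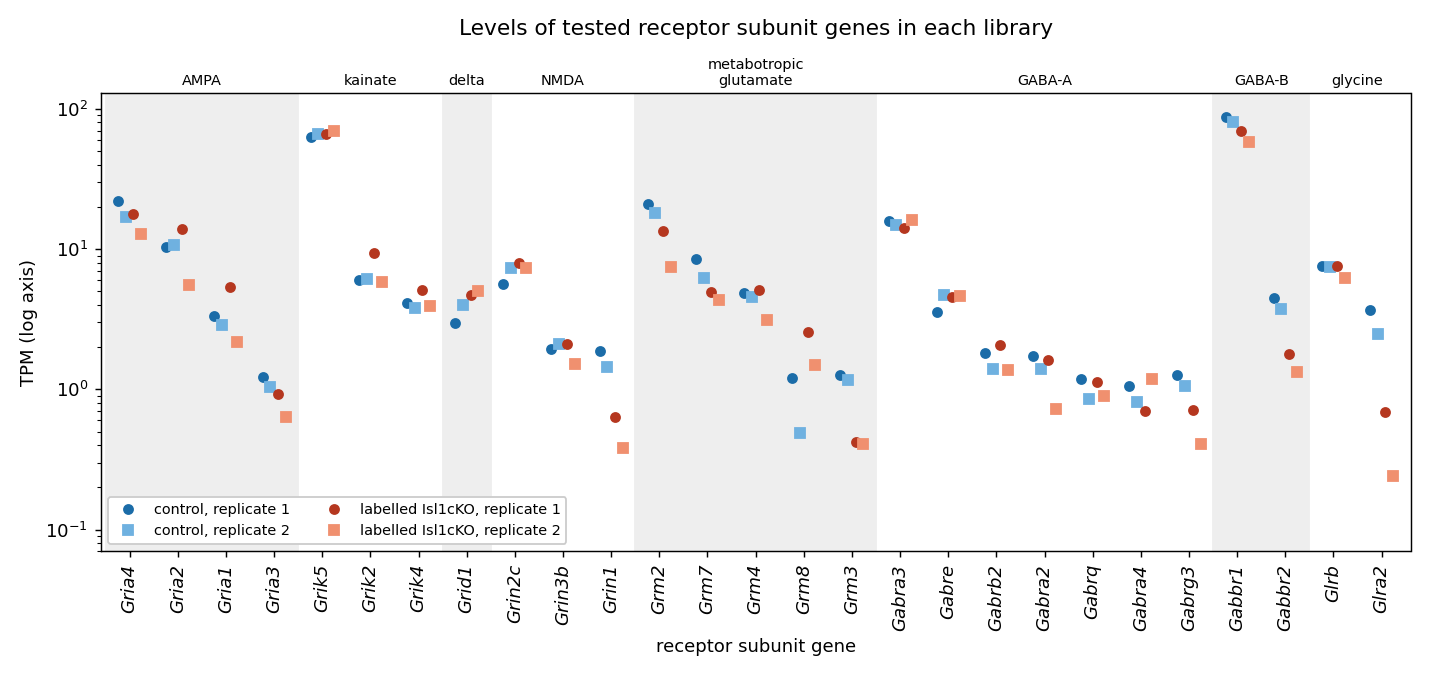
TPM of 27 tested receptor subunit genes (log axis) in each of the 4 libraries, ordered by receptor class and then by mean level. Grik5 and Gabbr1 stand between 58.3 and 87.8 TPM, and the points of Grin1, Grm3, Gabbr2 and Glra2 labelled Isl1cKO lie below both control points.

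None of the 30 tested members was called between the groups at an adjusted p-value under 0.05 in limma, where 69 of 13984 genes (0.493%) were. At an unadjusted p-value under 0.05, 8 members (26.7%) were lower and 2 (6.67%) higher in the Isl1cKO-labelled libraries, against 8.92% lower and 3.20% higher of all tested genes. The 8 lower were Grm3, Gabbr2, Glra2, Grin1, Gabrg3, Grm7, Grm2 and Gabbr1, and the 2 higher were Grid1 and Grm8. In 11 members (36.7%) both libraries labelled Isl1cKO lay below both controls, against 30.0% of all tested genes. In 3 of 30 they lay above, against 14.9%. The fitted log2 fold change was below 0 in 20 of 30 members, against 63.8% of all tested genes. The median over the tested members was -0.18 on the log2(TPM + 1) scale, against -0.05 over all tested genes.

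Of the 30, 5 members (Gria3, Gabrg3, Grin1, Glra2 and Grm3) passed the filter through the control libraries alone, so a difference was built into their selection. Among the other 25, 4 were lower and 2 higher at an unadjusted p-value under 0.05, 6 lay below and 3 above without overlap, and the median was -0.11. Among the 13780 genes at 1 TPM or more in at least 1 library of each group, 8.11% were lower and 2.99% higher at that p-value, 29.3% lay below and 14.8% above without overlap, and the median was -0.05. With no filter on low values, 10 of 51 members were lower and 3 higher at that p-value, against 7.72% and 2.75% of 19784 genes. The count of 8 lower members was 4 without control replicate 1, where the share of all genes was 4.15%. It was 17 without Isl1cKO replicate 1, where that share was 18.4%. The count of 2 higher members was 1 without either control, 0 without Isl1cKO replicate 1 and 5 without Isl1cKO replicate 2, where the shares of all genes were 1.30% and 1.87%, 4.93%, and 3.28%.

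**Figure D2:**
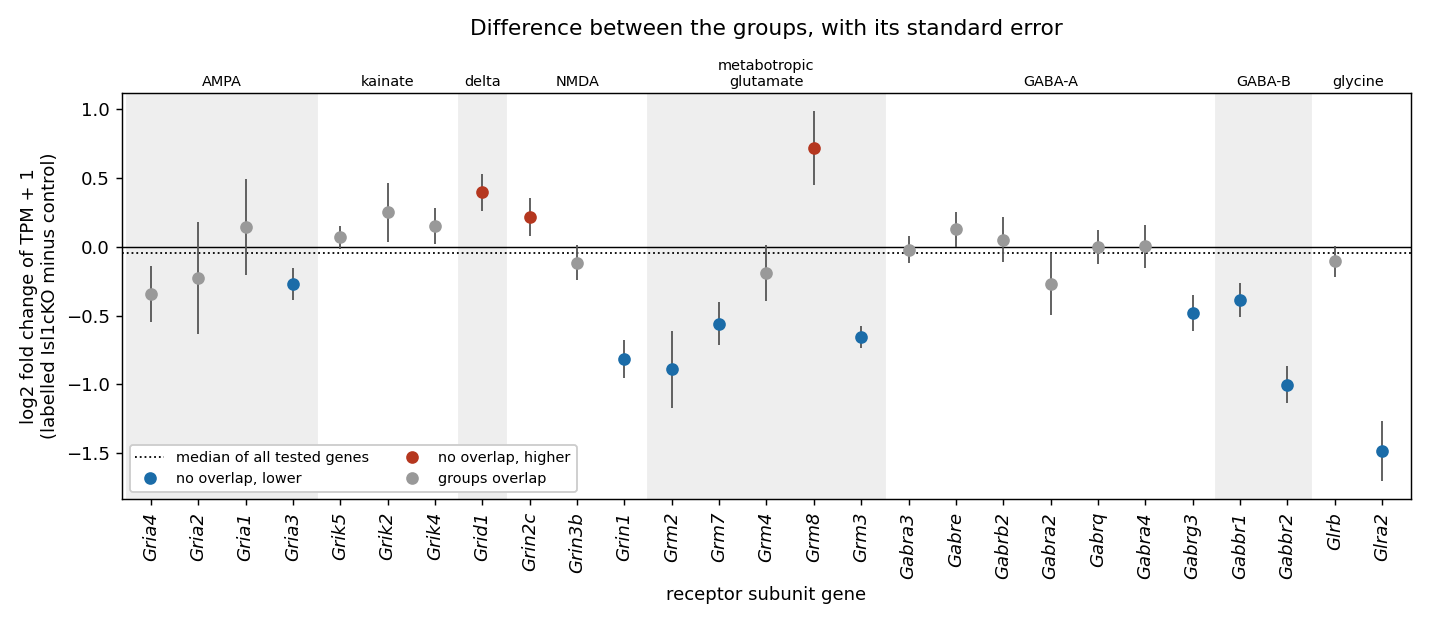
Log2 fold change of TPM + 1 (labelled Isl1cKO minus control) of 27 tested receptor subunit genes with its standard error, the dotted line marking the median of all tested genes. Glra2 at -1.48 and Gabbr2 at -1.001 lie farthest below 0, and Grm8 at 0.72 farthest above.

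The starts of 6 members are shown: the 4 with the smallest unadjusted p-values, all lower in the Isl1cKO-labelled libraries, and the 2 most abundant, Gabbr1 and Grik5, of which Grik5 overlapped between the groups. Each is the 250 bases before the gene start in RefSeq, on build GRCm38.p6, written 5′ to 3′ on the gene's strand. Capitals mark matches on either strand to any of 6 motifs: CTAATG (bound by Islet-type homeodomains), CAGCACC (the left part of the RE1 element of the neuronal repressor REST), GGACAGC (its right part), CAGCTG (an E-box), GGGCGG (the GC box of Sp1) and TATAAA (the TATA box).
Gabbr2, chr4:46991715-46991964, minus strand: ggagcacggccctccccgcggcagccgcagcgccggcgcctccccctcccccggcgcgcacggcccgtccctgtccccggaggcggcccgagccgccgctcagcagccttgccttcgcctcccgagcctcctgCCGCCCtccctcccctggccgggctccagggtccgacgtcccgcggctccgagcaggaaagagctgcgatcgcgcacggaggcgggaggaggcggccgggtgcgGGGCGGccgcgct
Glra2, chrX:165327394-165327643, minus strand: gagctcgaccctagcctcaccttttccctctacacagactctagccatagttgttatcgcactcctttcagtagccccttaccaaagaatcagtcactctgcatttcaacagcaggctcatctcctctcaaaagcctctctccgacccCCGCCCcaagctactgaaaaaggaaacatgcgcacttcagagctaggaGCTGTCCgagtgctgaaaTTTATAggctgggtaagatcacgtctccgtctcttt
Grin1, chr2:25319188-25319437, minus strand: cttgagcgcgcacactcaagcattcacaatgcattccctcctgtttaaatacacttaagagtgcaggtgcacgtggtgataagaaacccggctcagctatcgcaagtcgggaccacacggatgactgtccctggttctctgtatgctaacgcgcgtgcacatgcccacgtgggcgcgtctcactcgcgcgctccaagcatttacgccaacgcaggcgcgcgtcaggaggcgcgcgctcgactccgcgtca
Grm3, chr5:9725353-9725602, minus strand: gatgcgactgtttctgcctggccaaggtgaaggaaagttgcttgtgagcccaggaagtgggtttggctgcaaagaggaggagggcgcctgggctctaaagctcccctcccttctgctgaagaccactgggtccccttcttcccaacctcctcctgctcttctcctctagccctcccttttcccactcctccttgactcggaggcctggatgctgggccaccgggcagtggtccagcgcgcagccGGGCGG
Gabbr1, chr17:37045716-37045965, plus strand: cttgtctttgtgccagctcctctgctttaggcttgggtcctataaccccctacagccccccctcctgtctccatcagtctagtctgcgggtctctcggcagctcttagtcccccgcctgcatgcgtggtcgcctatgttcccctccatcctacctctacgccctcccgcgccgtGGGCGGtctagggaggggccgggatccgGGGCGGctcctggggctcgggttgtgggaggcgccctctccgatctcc
Grik5, chr7:25072370-25072619, minus strand: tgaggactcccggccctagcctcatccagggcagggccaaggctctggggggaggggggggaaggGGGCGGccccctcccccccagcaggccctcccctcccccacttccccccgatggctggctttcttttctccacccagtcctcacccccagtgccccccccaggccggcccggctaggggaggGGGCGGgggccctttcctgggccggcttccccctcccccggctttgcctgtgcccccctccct

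Windows were found for 36 of the 52 members. In 26 of these windows, bases shortly after the start lay in an annotated transcript of the gene. Among the 6 shown, those of Grm3 and Grik5 did not. The GC box was in 20 of 36 (55.6%), against 32.7% of 32817 windows of the same length over all genes, and CpG pairs numbered 9 at the median against 6. The Gabbr2 window held 37 CpG pairs, the Grin1 window 27 with no match to any of the 6 motifs, and the Glra2 window 8 with a match to the GC box, the right part of RE1 and the TATA box. The Glra2 window belongs to a start 474 bases from that of the authors' table. The Islet motif was in 1 of 36 member windows (2.78%), that of Gabrr2, against 6.36% of all windows. The left part of RE1 was in 5.56% of member windows against 5.73%, its right part in 11.1% against 5.28%, the E-box in 5.56% against 13.01%, and the TATA box in 11.1% against 12.4%. The 6 motifs are different letter strings, their matches can overlap, and a match is a description of letters, not of binding.

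AMPA receptors, which carry most fast excitation, were represented by all 4 subunit genes, and none separated the groups except the lowest, Gria3. That gene passed the filter through the control libraries alone, so its separation was built into its selection. Gria4 (chromosome 9, 4417893 to 4796234, minus strand) was at 22.0 and 17.0 TPM in control replicates 1 and 2, and at 17.7 and 12.8 TPM in Isl1cKO replicates 1 and 2. Gria2, whose product makes these channels impermeable to calcium once its message is edited, stood at 10.4 and 10.7 TPM in control and at 13.9 and 5.53 TPM in the Isl1cKO-labelled libraries. The latter pair lay on both sides of the controls, and the log2 fold change of -0.23 (SE 0.41, adjusted p-value 0.865 in limma) became 0.37 without Isl1cKO replicate 2. Gria1 showed the same spread, at 3.32 and 2.87 TPM in control and at 5.41 and 2.18 TPM in the Isl1cKO-labelled libraries. Gria3, on the X chromosome, stood at 1.23 and 1.04 TPM in control and at 0.920 and 0.633 TPM, with a log2 fold change of -0.27 (SE 0.12, adjusted p-value 0.472 in limma). Gria4 made up 46.7% to 60.5% of the summed AMPA subunit level in every library, and Gria2 26.2% to 36.6%.

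Kainate receptor genes gave the highest glutamate receptor level, almost all of it from 1 gene, and no tested member separated the groups. Grik5 (chromosome 7, 25009851 to 25072369, minus strand) encodes a high-affinity subunit that forms channels only with the products of Grik1 to Grik3. It stood at 62.9 and 66.7 TPM in control and at 66.3 and 69.8 TPM in the Isl1cKO-labelled libraries, with overlapping groups. The log2 fold change of Grik5 was 0.07 (SE 0.08, adjusted p-value 0.798 in limma). Grik2, a principal subunit able to form channels by itself, stood at 6.04 and 6.13 TPM in control and at 9.34 and 5.85 TPM. Grik4, the other high-affinity subunit, stood at 4.11 and 3.78 TPM in control and at 5.10 and 3.94 TPM. In both, Isl1cKO replicate 1 was the highest library and Isl1cKO replicate 2 lay near the controls. Grik3, which was not tested, stood at 0.651 and 0.681 TPM in control and at 0.349 and 0.290 TPM, and Grik1, also untested, at 0.362 and 0.298 TPM against 0.496 and 0.638 TPM. Grik5 held 81.3% to 86.7% of the summed kainate subunit level.

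Delta receptor genes encode relatives of the ionotropic receptors that act at synapses through the cerebellin adhesion proteins. Grid1 (chromosome 14, 34820136 to 35581115, plus strand) was at 2.97 and 3.98 TPM in control and at 4.70 and 5.01 TPM in the Isl1cKO-labelled libraries, higher in both. Its log2 fold change was 0.40 (SE 0.14, adjusted p-value 0.377 in limma).

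Among NMDA receptor genes the obligate subunit was lower in both libraries labelled Isl1cKO while the most abundant partner was not. The obligate subunit gene, Grin1, passed the filter through the control libraries alone, so its difference was built into its selection. Grin1 (chromosome 2, 25291177 to 25319187, minus strand) was at 1.89 and 1.43 TPM in control and at 0.640 and 0.384 TPM. The means were 1.66 ± 0.322 and 0.512 ± 0.181 TPM (SD, n = 2 each), a ratio of 3.24, and the log2 fold change was -0.82 (SE 0.14, adjusted p-value 0.156 in limma). An annotated antisense gene, Grin1os, shares 13.47% of the Grin1 exon bases and was itself at 0.0647 to 0.249 TPM. Grin2c (chromosome 11, 115249169 to 115267243, minus strand), a modulatory subunit, stood at 5.62 and 7.31 TPM in control and at 7.90 and 7.31 TPM, the lower of these just above the higher control. Its log2 fold change was 0.21 (SE 0.14, adjusted p-value 0.626 in limma). Grin1 thus made up 17.1% and 11.3% of the summed NMDA subunit level in control, against 5.33% and 3.84%. Grin3b, for a glycine-binding subunit, stood at 1.94 and 2.11 TPM in control and at 2.09 and 1.52 TPM, with overlap. Its exons share 32.1% of their bases with Tmem259 on the opposite strand, which stood at 103 to 112 TPM, so its own level is uncertain where strand was not used in counting. The remaining 4 genes were not tested. Grin2a stood at 0.286 and 0.276 TPM in control and at 0.0977 and 0.0638 TPM, Grin2b did not exceed 0.115 TPM in any library, Grin2d was at 0.485 and 0.900 TPM against 0.410 and 0.459 TPM, and Grin3a at 0.744 and 0.635 TPM against 0.793 and 0.220 TPM.

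Metabotropic glutamate receptors are grouped by sequence and coupling, and both group II genes, whose products inhibit adenylyl cyclase, were lower in both libraries labelled Isl1cKO. The same held for 30.0% of all tested genes. Grm3 passed the filter through the control libraries alone, so its difference was built into its selection. Grm2 (chromosome 9, 106644534 to 106656109, minus strand) was at 20.9 and 18.2 TPM in control and at 13.4 and 7.46 TPM. Its means were 19.5 ± 1.95 and 10.4 ± 4.23 TPM (SD, n = 2 each), with a log2 fold change of -0.89 (SE 0.28, adjusted p-value 0.342 in limma). Grm3 (chromosome 5, 9485236 to 9725352, minus strand) was at 1.27 and 1.17 TPM in control and at 0.420 and 0.405 TPM. The ratio of its means was 2.96 and its log2 fold change -0.65 (SE 0.08). Its adjusted p-value in limma, 0.0829, was the smallest among the members. At a pseudocount of 0.1 it passed (log2 fold change -1.37, adjusted p-value 0.0412 in limma). Its other settings with all libraries gave adjusted p-values of 0.0585 to 0.265, and leaving out a library gave 0.0821 to 0.598. The summed group II level was 19.3 to 22.2 TPM in control and 7.87 to 13.9 TPM in the Isl1cKO-labelled libraries.

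Group III genes, whose products mostly sit on presynaptic terminals, went in different directions. Grm7 (chromosome 6, 110645512 to 111567230, plus strand) was at 8.47 and 6.23 TPM in control and at 4.91 and 4.35 TPM, with a log2 fold change of -0.56 (SE 0.16, adjusted p-value 0.311 in limma). Grm8 (chromosome 6, 27275121 to 28135146, minus strand), singled out after its values were seen, stood at 1.20 and 0.490 TPM in control and at 2.56 and 1.49 TPM. Both libraries labelled Isl1cKO were thus above both controls, and the log2 fold change was 0.72 (SE 0.27, adjusted p-value 0.409 in limma). Grm4 stood at 4.84 and 4.56 TPM in control and at 5.08 and 3.10 TPM, with overlap. Grm6, the receptor of ON bipolar cells, was listed at 0 in 2 libraries and at no more than 0.0588 TPM in the others. In group I, Grm5 stayed at or below 0.207 TPM and was not tested.

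GABA-A receptors are pentamers built mostly from alpha, beta and gamma subunits. Gabra3 held 81.5% to 85.4% of the summed alpha subunit level in each library. Gabra3 stood at 15.9 and 15.0 TPM in control and at 14.2 and 16.2 TPM in the Isl1cKO-labelled libraries, with overlap and a log2 fold change of -0.02 (SE 0.10, adjusted p-value 0.955 in limma) that turned to 0.03 under median-ratio scaling and 0.06 under quantile normalization.

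Among the less abundant GABA-A genes, Gabrg3 alone separated the groups of those tested. That gene passed the filter through the control libraries alone, so its separation was built into its selection. It stood at 1.27 and 1.05 TPM in control and at 0.709 and 0.405 TPM, with a log2 fold change of -0.48 (SE 0.13, adjusted p-value 0.300 in limma). Gabre, for the epsilon subunit, ranged from 3.57 to 4.67 TPM, Gabrb2 from 1.37 to 2.07 TPM, Gabra2 from 0.719 to 1.74 TPM, Gabrq, for the theta subunit, from 0.854 to 1.18 TPM and Gabra4 from 0.706 to 1.19 TPM, all with overlapping groups. The untested GABA-A genes included Gabra5, Gabra6, Gabrb1, Gabrd, Gabrg1, Gabrp, Gabrr1, Gabrr2 and Gabrr3. Gabra6, a gene of cerebellar granule cells, was listed at 0 in all 4 libraries. The rho subunit genes Gabrr1 to Gabrr3, which serve bipolar cells in the mature retina, summed to 0.249 to 0.944 TPM.

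GABA-A genes lie in clusters, and neighbours in a cluster often differed in level. On chromosome 5 (70751047 to 72149572) Gabra2 had a log2 fold change of -0.27 and Gabra4 one of 0.00217, while Gabrg1 and Gabrb1 did not exceed 0.258 TPM. On the X chromosome (72257432 to 72842602) Gabre, Gabra3 and Gabrq had log2 fold changes of 0.13, -0.02 and -0.000107. The exons of Gabra4 and Gabrb1 share 46 bases on opposite strands. Outside the GABA-A family, Gria2 and Glrb are neighbours on chromosome 3 (80681450 to 80913660), and Gabrr2 and Gabrr1 on chromosome 4.

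Both GABA-B receptor genes were lower under the Isl1cKO label, with the larger relative difference in the scarcer partner and the larger difference in TPM in the abundant one. Gabbr1 (chromosome 17, 37045966 to 37074305, plus strand), whose product binds GABA, stood at 87.8 and 80.0 TPM in control and at 70.0 and 58.3 TPM. The means were 83.9 ± 5.57 and 64.1 ± 8.26 TPM (SD, n = 2 each), with a log2 fold change of -0.39 (SE 0.12, adjusted p-value 0.352 in limma). Gabbr2 (chromosome 4, 46662318 to 46991714, minus strand), whose product couples to the G protein and brings the other to the cell surface, stood at 4.49 and 3.74 TPM in control and at 1.78 and 1.34 TPM. The means were 4.11 ± 0.526 and 1.56 ± 0.311 TPM (SD, n = 2 each), a ratio of 2.64. Its log2 fold change was -1.001 (SE 0.13, adjusted p-value 0.101 in limma). Gabbr2 thus made up 4.86% and 4.47% of the joint level in control and 2.48% and 2.24% in the Isl1cKO-labelled libraries. That the 2 genes differ in their change was not tested.

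Of the glycine receptor genes, the embryonic alpha subunit was lower in both libraries labelled Isl1cKO while the beta subunit overlapped. The alpha subunit gene, Glra2, passed the filter through the control libraries alone, so its difference was built into its selection. Glra2 (X chromosome, 165129017 to 165327867, minus strand), the alpha subunit of immature neurons, stood at 3.68 and 2.50 TPM in control and at 0.690 and 0.242 TPM. The means were 3.09 ± 0.837 and 0.466 ± 0.317 TPM (SD, n = 2 each), a ratio of 6.63. Its log2 fold change of -1.48 (SE 0.22) was the farthest from 0 among the tested members, and the adjusted p-value was 0.123 in limma. Glrb, which anchors the receptor to gephyrin, stood at 7.57 and 7.40 TPM in control and at 7.59 and 6.23 TPM, with a log2 fold change of -0.11 (SE 0.11, adjusted p-value 0.769 in limma). Glra2 made up 31.98% and 24.6% of the summed glycine subunit level in control and 8.19% and 3.74% in the Isl1cKO-labelled libraries. Glra1, Glra3 and Glra4 stayed at or below 0.160 TPM.

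Summed over all genes of a class, GABA-B, metabotropic glutamate and glycine receptor levels were lower in both libraries labelled Isl1cKO, and the kainate level was higher in both. Metabotropic glutamate receptors summed to 37.3 and 30.8 TPM in control and to 26.5 and 16.9 TPM, and glycine receptors to 11.5 and 10.1 TPM against 8.42 and 6.48 TPM. GABA-B receptors summed to 92.3 and 83.7 TPM against 71.7 and 59.6 TPM, and kainate receptors to 74.1 and 77.6 TPM against 81.6 and 80.5 TPM. AMPA receptors summed to 36.9 and 31.7 TPM in control and to 37.9 and 21.1 TPM, on both sides of the controls. GABA-A and NMDA sums had overlapping groups. All members together summed to 323 and 302 TPM in control and to 294 and 241 TPM.

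**Figure D3:**
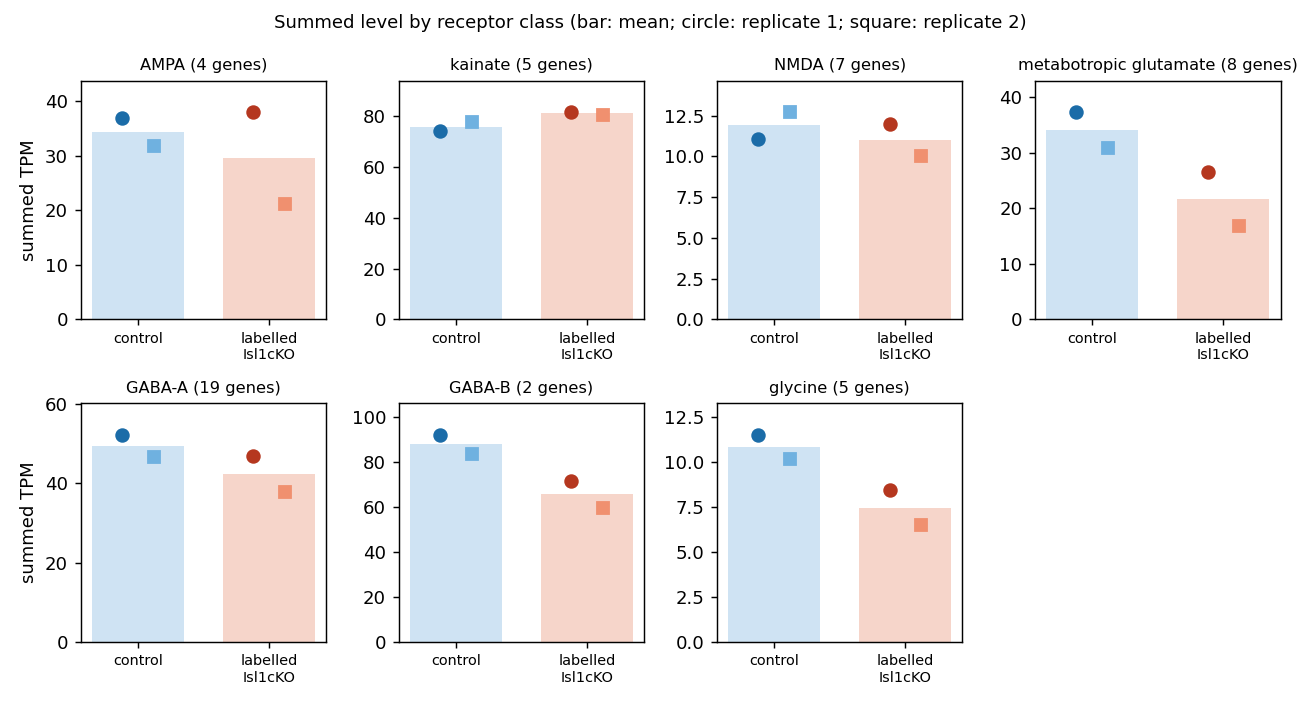
Summed TPM of 7 receptor classes in each library, with bars for the mean of 2 libraries and points for the libraries. The metabotropic glutamate, GABA-B and glycine points labelled Isl1cKO lie below both controls, and the kainate points (80.5 and 81.6 TPM) lie above (74.1 and 77.6 TPM).

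The 2 libraries labelled Isl1cKO differed from each other across the members. Isl1cKO replicate 2 was the lowest of the 4 libraries in 21 of 30 tested members (70.0%), against 46.2% of all tested genes. The 5 members that passed the filter through the control libraries alone were all among these 21. In those 5, the lowest library was an Isl1cKO-labelled one by selection. Relative to the control mean, Isl1cKO replicate 1 had a median difference of 0.01 on the log2(TPM + 1) scale with 15 of 30 members below 0. Isl1cKO replicate 2 had a median of -0.37 with 23 of 30 below 0. Over all tested genes the corresponding medians were -0.02 and -0.08. Glra2, Gabbr2, Grin1, Grm3 and Grm2 lay below the control mean in both libraries, by differences from -1.70 (Glra2, replicate 2) to -0.51 (Grm2, replicate 1), whereas Gria2, Gria1 and Grik2 lay above control in replicate 1 and below it in replicate 2. The summed ganglion cell markers were also lower in Isl1cKO replicate 2 than in replicate 1, and their part in this was not tested.

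**Figure D4:**
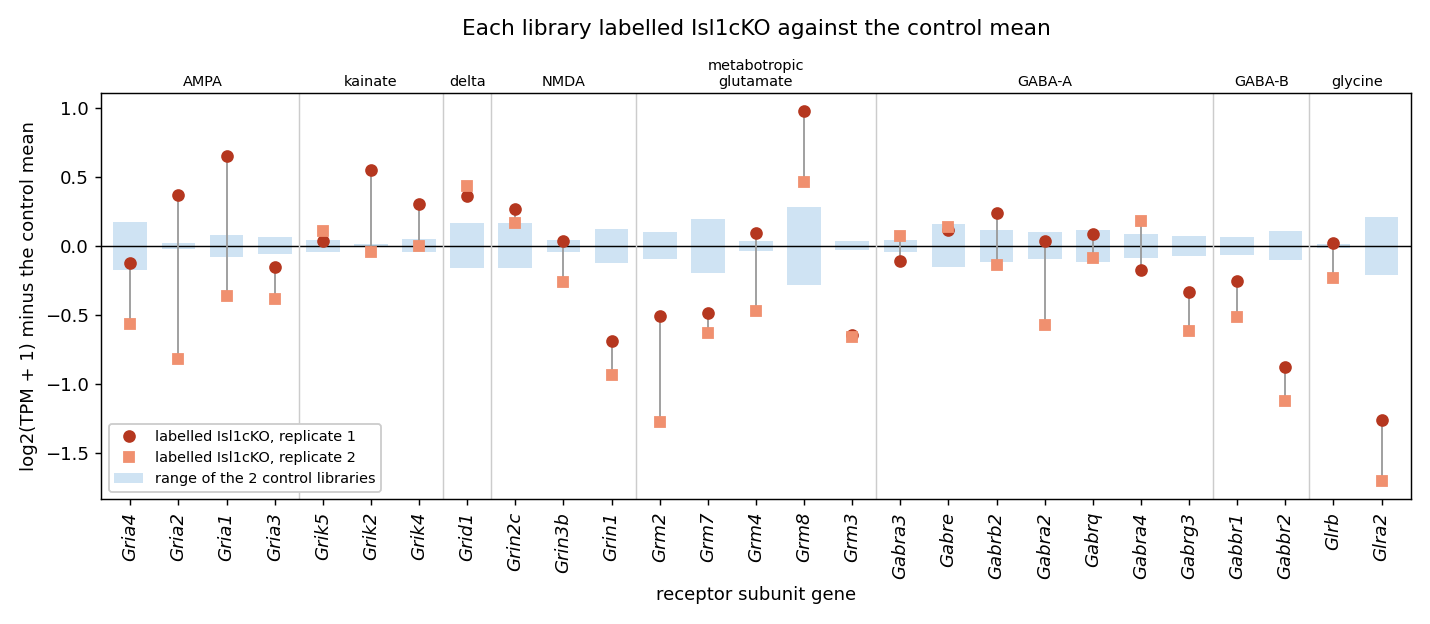
Log2(TPM + 1) of each library labelled Isl1cKO minus the control mean, for 27 tested receptor subunit genes, with the range of the 2 controls as a bar. The squares of replicate 2 lie below the circles of replicate 1 for most members, and both lie below the control range for Glra2, Gabbr2, Grin1, Grm2 and Grm3.

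Beside all tested genes, the members' log2 fold changes ran from -1.48 for Glra2 to 0.72 for Grm8, and the member with the smallest adjusted p-value was Grm3, at 0.0829 in limma.

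**Figure D5:**
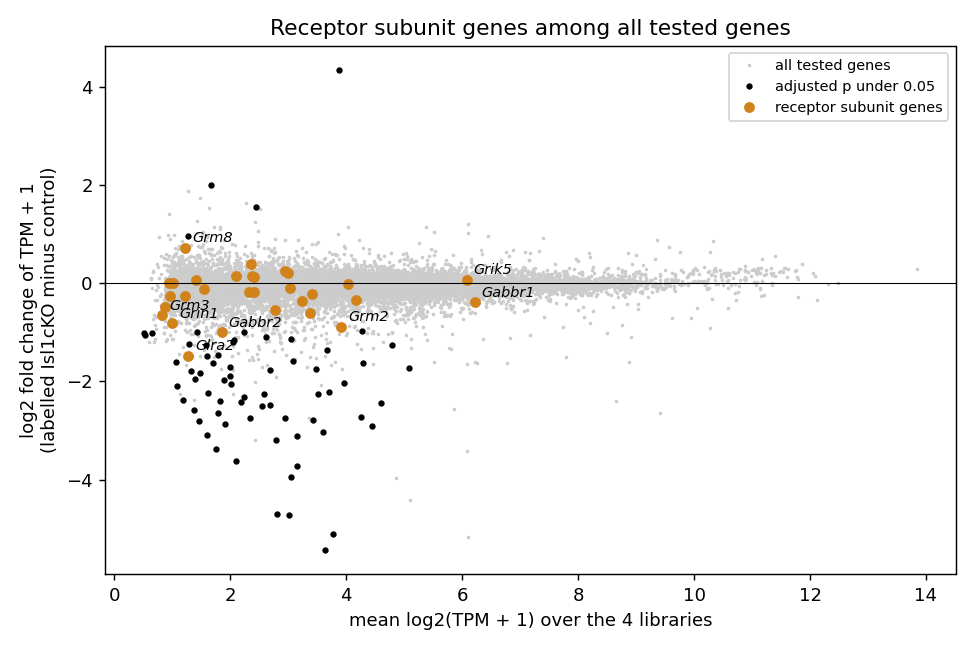
Log2 fold change of TPM + 1 (labelled Isl1cKO minus control) against mean log2(TPM + 1) for the 13984 tested genes, with the 69 called genes in black and the 30 receptor subunit genes in orange. The orange points lie between -1.48 and 0.72, and none is among the called genes.

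The partners of these receptors were read from lists of 66 genes for auxiliary subunits, scaffolds, transmitter synthesis and transport. Of these, 52 were tested and none was called in limma. At an unadjusted p-value under 0.05, 12 (23.1%) were lower and 3 (5.77%) higher, beside the 8.92% and 3.20% of all tested genes given above. Among the lower ones, Cacng5, Neto1 and Kctd16 reached 1 TPM in the control libraries alone, so a difference was built into their selection. The median log2 fold change of the 52 tested partners was -0.08.

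Among auxiliary subunits of AMPA and kainate receptors, 10 of 13 were tested, 6 of them lower and 3 higher in both libraries labelled Isl1cKO, beside 30.0% and 14.9% of all tested genes. Gsg1l, a claudin-like subunit that dampens AMPA receptors, stood at 3.56 and 4.60 TPM in control and at 1.29 and 1.13 TPM, with a log2 fold change of -1.20 (SE 0.13, adjusted p-value 0.0669 in limma). Neto1, an auxiliary subunit of kainate receptors singled out after its values were seen, stood at 2.16 and 2.32 TPM in control and at 0.797 and 0.561 TPM (adjusted p-value 0.0682 in limma). The most abundant, Cacng4 and Cacng7, lay on opposite sides of control, Cacng4 at 117 and 104 TPM against 91.6 and 93.1 TPM, and Cacng7 at 96.6 and 106 TPM against 116 and 133 TPM.

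Of 19 excitatory scaffold genes 16 were tested, with a median of 0.02 for the log2 fold change. Grip1, which binds AMPA receptor tails, stood at 34.7 and 32.3 TPM in control and at 26.8 and 23.9 TPM (log2 fold change -0.39, adjusted p-value 0.280 in limma). Dlg4, which encodes PSD-95, stood at 59.5 and 58.4 TPM in control and at 64.4 and 62.3 TPM. Of 11 inhibitory scaffold and partner genes 10 were tested, with a median of -0.08. Kctd16, an auxiliary subunit of GABA-B receptors, stood at 2.79 and 2.40 TPM in control and at 0.800 and 0.170 TPM, with a log2 fold change of -1.31 (SE 0.23, adjusted p-value 0.158 in limma). Gphn, which encodes gephyrin, ranged from 19.9 to 22.3 TPM with overlap.

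Slc12a5, the neuronal chloride exporter that sets the sign of the response to GABA and glycine, stood at 9.72 and 10.6 TPM in control and at 13.4 and 12.4 TPM, higher in both (log2 fold change 0.32, adjusted p-value 0.322 in limma). Its counterpart Slc12a2 imports chloride and ranged from 21.2 to 27.6 TPM with overlap. Gad2, a GABA synthesising enzyme, stood at 13.503 and 11.3 TPM in control and at 9.83 and 7.33 TPM (log2 fold change -0.49, adjusted p-value 0.378 in limma). The 4 tested glutamate transporters had a median of -0.60, with Slc1a3, the glial and progenitor uptake carrier, at 66.1 and 44.2 TPM in control and at 18.5 and 23.9 TPM (log2 fold change -1.32, adjusted p-value 0.167 in limma). The 4 tested GABA and glycine transporters had a median of -0.20.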

How the data were processed

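RNA of 4 retina libraries was sequenced from strand-specific, poly(A)-selected libraries, per the labels' protocols. Per the submitters' processing notes, HISAT2, StringTie, SAMtools, Trimmomatic, FastQC and DESeq2 were used with build mm10, with no versions or roles, and the annotation and the use of strand are not given in the sources used here. The authors deposited 1 table per library with coverage (a signal not scaled to depth), FPKM and TPM for each gene, per the file headers. Depth in reads is unknown, so no counting interval or floor is given.

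TPM was summed over repeated rows. The 13984 genes at 1 TPM or more in at least 2 libraries were compared on log2(TPM + 1) by limma 3.58.1 (R 4.3.3; a single genotype term, Benjamini-Hochberg adjustment over all of them, threshold 0.05). A log2 fold change on this scale is smaller than that of the level itself where a gene is low. The fit was tested on simulated data. All 52 members lay at the same place and strand in GENCODE M21, from which exon overlaps were taken.

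Named with full values were the called members, the 2 highest and the 2 with the smallest p-value in each class, and the smallest p-value in each list of partners, except for some genes that are not reported here. The members and lists were chosen with earlier results of these data known. Alternatives were another pseudocount, filters, variance prior, FPKM, median-ratio and quantile scaling, the replicate number as a block, and leaving out each library.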

Additional observations from a re-analysis of the deposited data

How the results depend on the processing

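The 69 called genes of the whole comparison became 44 at a pseudocount of 0.1, 15 with no filter, 110 with a mean-variance trend, 127 with FPKM and 265 with the replicate block, and 10 to 37 when a library was left out. No receptor subunit gene was called except 1 at a pseudocount of 0.1 and 4 of 30 with the replicate block. Of all 13984 tested genes, 44 and 265 were called in these settings. The 1 was Grm3, and the 4 were Glra2, Grin1, Gabbr2 and Grm8, with adjusted p-values of 0.00802, 0.0349, 0.0209 and 0.0490 in limma. Grm3, Glra2 and Grin1 had passed the filter through the control libraries alone, so a difference was built into their selection. No partner gene was called except 1 with FPKM (Gsg1l, adjusted p-value 0.0473 in limma) and 4 with the replicate block, among them Gsg1l and Kctd16. The replicate numbers share no stated litter or day, and the deviations of the first replicates of the groups correlated at 0.126 with only 2 pairs, so the block shows no more than a shared number. When a library was left out, 1 sample stood for its group and was assumed to vary like the other group. No receptor subunit gene was called then, and the median over members ranged from -0.37 to 0.01, the latter without Isl1cKO replicate 2.

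Of 22 receptor subunit genes refitted, 19 kept their sign in each setting that kept all libraries and tested them, and 16 when each library was left out. The filters, the mean-variance trend and the replicate block cannot alter a log2 fold change. Only the pseudocount, FPKM and the median-ratio and quantile scaling could change a sign there. Glra2, Grin1, Grm3 and Grm8 were not fitted with FPKM or at 5 TPM. Where the groups did not overlap, leaving out a library could not change the sign either. Gabra3 (-0.02) became 0.0246 with FPKM, 0.0323 under median-ratio scaling and 0.0630 under quantile normalization, under which Glrb also became 0.0249 and Grin3b 0.0176. Leaving out a library gave -0.11 to 0.0680 for Gabra3, -0.23 to 0.0175 for Glrb, -0.82 to 0.37 for Gria2, -0.0484 to 0.55 for Grik2, -0.00127 to 0.30 for Grik4 and -0.26 to 0.0334 for Grin3b. The cause of these changes was not tested. The members counted lower at an unadjusted p-value under 0.05, a count added after seeing the data, numbered 3 of 12 at a filter of 5 TPM (8.69% of all genes) and 4 of 19 with FPKM (7.35%), where fewer genes were tested. The 2 counted higher (3.20% of all genes) became 1 at a pseudocount of 0.1 (2.91%), with a mean-variance trend (3.34%) and with FPKM (5.04%), 3 under quantile scaling (6.42%) and 0 when 5 TPM was required (3.34%).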

Other observations

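Gad1, the second GABA synthesising enzyme gene, was listed at 0 in control replicate 1 and Isl1cKO replicate 2 and stood at 0.0865 and 0.0516 TPM in the other two libraries, while Gad2 ranged from 7.33 to 13.503 TPM. Of 4 vesicular carriers for these transmitters, Slc17a6, which loads glutamate, was the most abundant at 20.6 and 15.0 TPM in control and at 14.1 and 6.68 TPM in the Isl1cKO-labelled libraries. Slc32a1, which loads GABA and glycine, stood at 1.80 and 0.950 TPM in control and at 0.860 and 0.401 TPM, and was not tested because 1 library alone reached 1 TPM. Slc17a7 and Slc17a8 did not exceed 0.578 TPM in any library.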
